A study of Mus musculus with 6 samples.

Results

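The genes described here encode the machinery that copies DNA. They are 39 genes taken by symbol from the 46517 gene rows measured in every library, grouped by the step they serve: 10 in licensing, 7 in helicase activation and the fork, 8 in the polymerases and primase, 6 in the clamp and its loader, 4 in strand binding and lagging-strand joining, and 4 in nucleotide supply. All 39 symbols were found, and all 39 passed the filter on low counts, so none is left out of the tests. The tissue is the mouse hair germ, the small cluster of progenitors at the base of the resting follicle, whose cells divide early when a new hair cycle starts.

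The samples were hair germ stem cells sorted by flow cytometry from the dorsal skin of mice at postnatal day 60; the hair had been pulled out (depilation) 3 days earlier. LEF1_TCF7dKO, called the double knockout below, carried Sox9-CreER;R26-lox-stop-lox-YFP with Lef1fl/fl and Tcf7-/-. LEF1cKO carried Sox9-CreER;R26-lox-stop-lox-YFP with Lef1fl/fl, and WT carried Sox9-CreER;R26-lox-stop-lox-YFP alone. The driver and the YFP reporter were thus shared by all 3 groups, and Lef1 was targeted conditionally through the Sox9-driven recombinase. The Tcf7-/- genotype, as labelled, is that of the whole double-knockout animal, skin and immune cells included. LEF1 and TCF7 are transcription factors that bind DNA for the Wnt and beta-catenin pathway. Each group held 2 libraries, and the sex of every sample was given as mixed. Nothing in the labels ties the libraries to separate animals, and the p-values therefore rest on a spread between samples that may be technical.

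Depth was 40480694 and 42987210 expected counts in the double knockout, 49656967 and 54283055 in LEF1cKO, and 52935357 and 63220022 in WT. Over the whole gene, Lef1 stood at 9.22 and 9.42 TPM in the double knockout, 13.5 and 8.37 TPM in LEF1cKO, and 21.4 and 20.4 TPM in WT. Tcf7 stood at 13.7 and 18.0 TPM in the double knockout, 29.3 and 27.8 TPM in LEF1cKO, and 26.9 and 36.0 TPM in WT. Both genes were thus lower, but not at 0, in the libraries labelled as lacking them, and gene totals cannot show which exons were read. Levels below are TPM, an expression unit of the authors' files, scaled by gene length, that can be compared between genes. Changes are log2 fold changes ± SE fitted on the counts with edgeR, and "rose" and "fell" mean a Benjamini-Hochberg adjusted p under 0.05 over 19640 genes in its quasi-likelihood test.

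DNA is copied from origins that are first licensed and then fired. The origin recognition complex, with CDC6 and CDT1, loads the ring-shaped MCM2-7 helicase, and CDC45 and the GINS complex then turn it into a moving helicase. Primase and polymerase alpha lay primers, polymerases epsilon and delta extend the leading and lagging strands, the clamp PCNA holds the polymerase on DNA and is placed there by replication factor C (RFC), and RPA, FEN1 and ligase I protect, trim and seal the new strands. Many of these genes are textbook targets of E2F transcription factors, which act as cells enter S phase.

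The promoters are shown first because an E2F-type motif is what the group is best known for. Binding by E2F factors was not measured here. RefSeq windows on build GRCm38.p6 ran from 250 bases before to 50 bases after an annotated start. They were matched by symbol for 32 of the 39 genes. Only the first listed window of each gene was used, and any other annotated starts were not searched. The E2F-type octamers searched, on both strands, were TTTCCCGC, TTTGGCGC, TTTCGCGC and TTTGCCGC, and the last of these was in 0 of the 32 windows. Capitals mark these octamers in the windows below, which are printed 5′ to 3′ on the strand of the gene. Mcm5, from chr8:75109259-75109558 on the plus strand, and Mcm6, from chr1:128359656-128359955 on the minus strand, are shown because 2 octamers overlap each other there. Orc1, from chr4:108579204-108579503 on the plus strand, is shown as a window with a single octamer just before the start. Tk1, from chr11:117825965-117826264 on the minus strand, holds none of them and is shown because it was among the genes that fell most.
Mcm5: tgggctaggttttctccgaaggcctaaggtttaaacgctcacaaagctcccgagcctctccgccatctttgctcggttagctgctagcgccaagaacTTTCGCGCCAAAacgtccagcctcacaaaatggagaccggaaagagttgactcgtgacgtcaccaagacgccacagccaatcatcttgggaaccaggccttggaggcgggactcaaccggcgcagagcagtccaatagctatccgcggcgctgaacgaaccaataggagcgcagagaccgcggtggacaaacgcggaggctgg
Mcm6: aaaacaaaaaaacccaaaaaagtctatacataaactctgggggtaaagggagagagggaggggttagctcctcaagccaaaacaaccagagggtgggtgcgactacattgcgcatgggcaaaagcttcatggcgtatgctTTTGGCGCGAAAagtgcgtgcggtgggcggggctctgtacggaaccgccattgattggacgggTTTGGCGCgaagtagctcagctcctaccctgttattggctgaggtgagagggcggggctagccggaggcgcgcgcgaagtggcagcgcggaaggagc
Orc1: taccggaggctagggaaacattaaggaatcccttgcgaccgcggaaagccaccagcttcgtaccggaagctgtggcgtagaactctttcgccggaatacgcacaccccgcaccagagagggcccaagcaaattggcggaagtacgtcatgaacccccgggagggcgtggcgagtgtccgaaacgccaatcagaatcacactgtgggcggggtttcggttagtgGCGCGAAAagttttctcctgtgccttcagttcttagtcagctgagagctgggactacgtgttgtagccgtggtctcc
Tk1: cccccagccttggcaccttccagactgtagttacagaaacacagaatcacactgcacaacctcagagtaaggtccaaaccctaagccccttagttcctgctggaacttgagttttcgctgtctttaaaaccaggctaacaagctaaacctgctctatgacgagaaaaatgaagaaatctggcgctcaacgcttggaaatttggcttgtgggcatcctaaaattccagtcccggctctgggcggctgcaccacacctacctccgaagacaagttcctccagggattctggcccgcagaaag

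An E2F-type octamer was present in 12 of the 32 member windows (37.5%), against 626 of 27025 windows of all genes (2.3%) and 510 of 17491 windows of protein-coding genes (2.9%). Those 12 genes were Mcm3, Mcm5, Mcm6, Mcm7, Cdc6, Cdt1, Orc1, Gins3, Pola1, Pold1, Pole2 and Rfc3, so 7 of them belong to licensing. The pentamer CCAAT, on either strand, was in 20 of 32 member windows (62.5%), against 37.9% of all windows. The CHR hexamers TTTGAA and TTCGAA were in 6 of 32 (18.8%), against 19.4% of all windows. No octamer, pentamer or hexamer of this search was in the windows of Wdhd1, Pola2, Rfc4, Rfc5, Lig1, Tyms or Tk1. A match is only a match of letters, and other spellings of these sites were not searched.

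**Figure D1:**
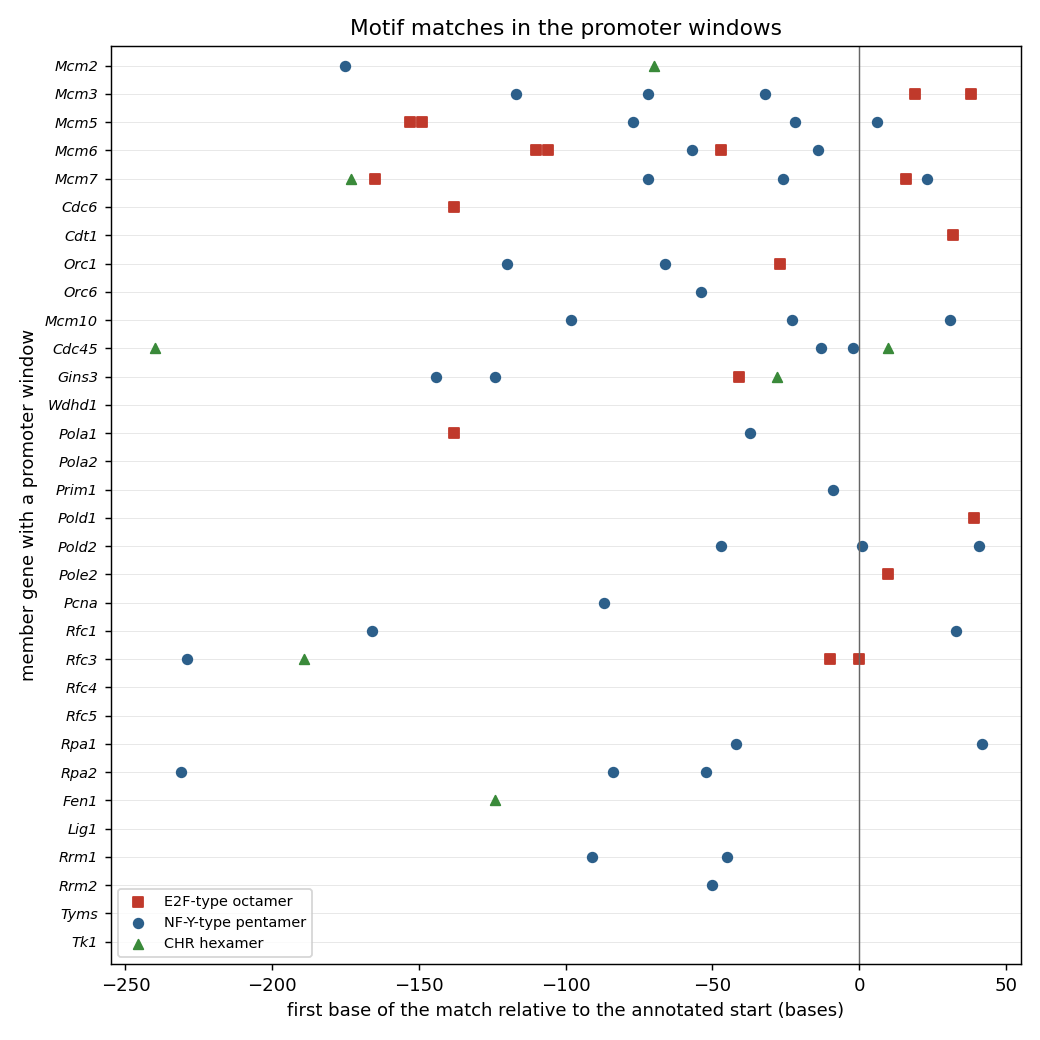
Positions of motif matches (x axis, bases from the annotated start, first base of the match) in the 32 member promoter windows, 1 row per gene in order of step. Red squares are E2F-type octamers, blue circles CCAAT pentamers (bound by NF-Y) and green triangles CHR hexamers; octamers occur in 12 of the 32 rows, and Mcm5 and Mcm6 each hold an overlapping pair.

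In the double knockout the whole set was lower. Against WT, 38 of 39 members fell and 0 rose, where 19.6% of all genes tested fell and 18% rose. The remaining member, Gins2, is described below. The median log2 fold change of the 39 was -1.09, or 0.471 times WT on the count scale, against a median of 0.01 over all genes tested. The values ran from -1.48 for Mcm10 and Rfc4 to -0.11 for Gins2. Against LEF1cKO, 38 of 39 members again fell, where 14.1% of all genes tested fell, with a median log2 fold change of -1.005. This second comparison uses the same double-knockout libraries as the first, so the 2 counts are not independent.

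The TPM values show the same without a test. In all 39 members both double-knockout libraries lay below both WT libraries and below both LEF1cKO libraries, which holds for 30.7% and 29.4% of all genes tested in those comparisons. Summed over the 39 genes, the level was 1895 and 2241 TPM in the double knockout, 4248 and 3836 TPM in LEF1cKO, and 3934 and 4177 TPM in WT. A member's mean in the double knockout was between 38.0% and 70.7% of its WT mean, with a median of 51.3%. The order of the genes by level was nearly kept, with a Spearman rho of 0.98 between double-knockout and WT means over the 39 genes. Pcna had the highest level of the 39 in every one of the 6 libraries.

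**Figure D2:**
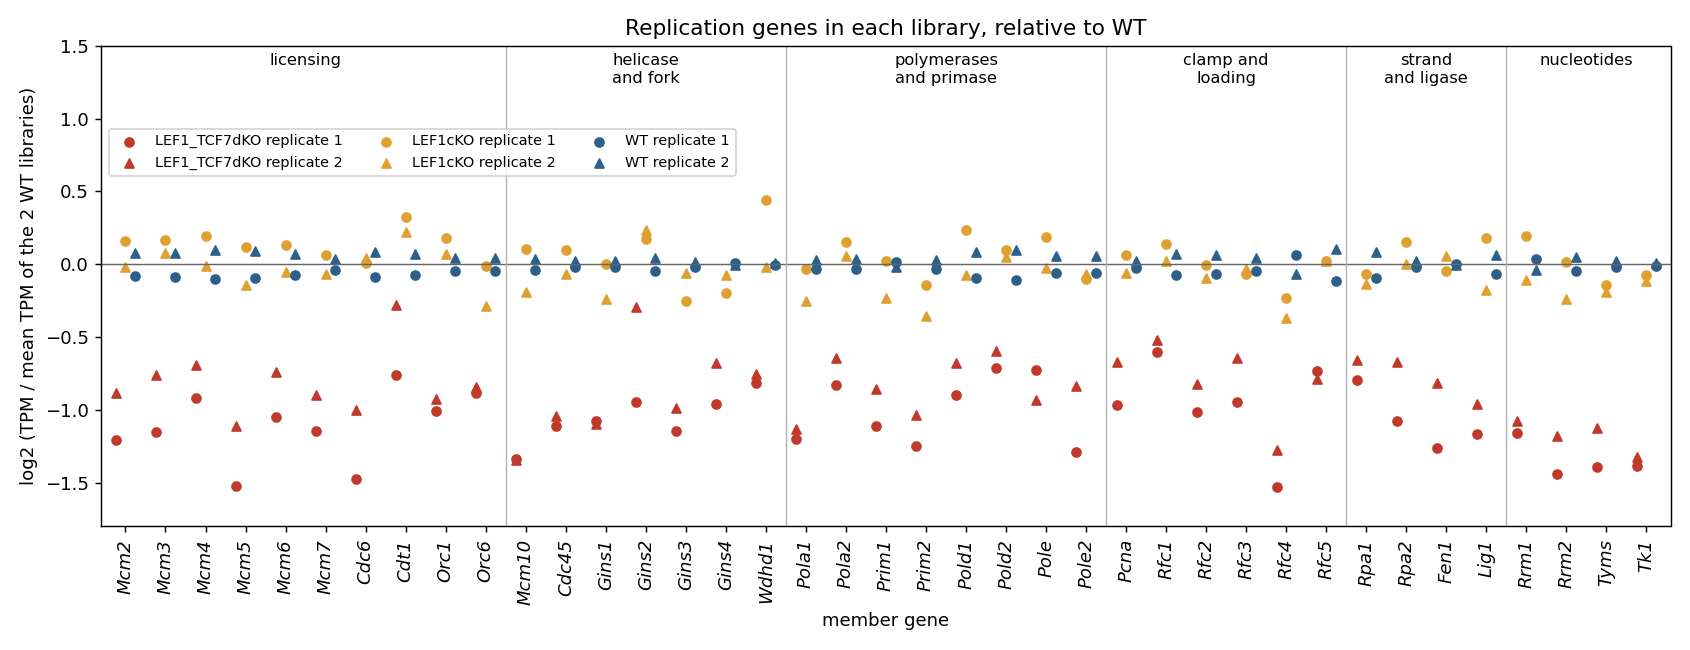
Level of each member in each library as the log2 of its TPM over the mean of the WT libraries (y axis), with genes on the x axis in order of step; circles are replicate 1 and triangles replicate 2. The red double-knockout points lie below the orange LEF1cKO and blue WT points of every gene, while orange and blue points overlap in most genes.

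Not every call rests equally on all libraries. Without double-knockout replicate 1, which was the lower of the pair in 35 of 39 members by TPM, 0 members passed against LEF1cKO, where only 1 of all genes passed, although 38 had an unadjusted p under 0.05, as did 28.9% of all genes in that fit. Their adjusted p were then between 0.0777 and 0.298. Without LEF1cKO replicate 1, which was the higher of its pair in 31 of 39 members, 25 members passed. Against WT, fewer members passed without double-knockout replicate 1 (median -0.94) and without WT replicate 2 (median -1.04). Fewer of all genes passed in each of these fits too. The log2 fold changes of the 38 genes stayed below 0 in each of these fits.

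Markers of several other cell types moved along with this fall. Summed markers of differentiated epidermis stood at 13607 and 12922 TPM in the double knockout, 3305 and 3403 TPM in LEF1cKO, and 1650 and 1341 TPM in WT, and 9 of 12 rose against WT. Of 10 fibroblast markers 10 rose, with sums of 2064 and 1714 TPM in the double knockout, 431 and 953 TPM in LEF1cKO, and 355 and 169 TPM in WT. Of 12 immune markers 9 rose, with sums of 1014 and 953 TPM in the double knockout, 227 and 369 TPM in LEF1cKO, and 146 and 55.2 TPM in WT. Of 10 endothelial and mural markers 8 rose. Their sums were 243 and 121 TPM in the double knockout, 62.7 and 68.7 TPM in LEF1cKO, and 67.7 and 52.5 TPM in WT. Melanocyte and Schwann markers did not move as a list. Of these 10, 4 rose and 0 fell, but their median log2 fold change against WT was -0.417. Their sums were 404 and 580 TPM in the double knockout, 405 and 278 TPM in LEF1cKO, and 620 and 426 TPM in WT. No marker of any list was at 0 in all libraries. Among 12 markers of the hair germ and basal follicle, 3 rose and 6 fell, with a median log2 fold change against WT of -0.505. Their sums were 16880 and 21557 TPM in the double knockout, 11286 and 14912 TPM in LEF1cKO, and 12537 and 13022 TPM in WT. The sums were thus higher in the double knockout than in WT although the median was lower. Of the genes used to sort the cells, Cdh3, which encodes P-cadherin, changed by -0.93 on the log2 scale (adjusted p = 0.0109), and Itgb1, which encodes integrin b1, by -0.33 (adjusted p = 0.0632, not passed). The part of these cells in the fall of the replication genes was not tested. In bulk RNA, fewer dividing cells and less RNA of these genes per cell cannot be told apart.

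In LEF1cKO no member passed the test. Against WT, 0 of 39 rose and 0 fell, where 0.224% of all genes tested rose and 0.377% fell (0.601% in either direction), and 0 had an unadjusted p under 0.05, where 9.58% of all genes tested did. The median log2 fold change was -0.07, with values from -0.33 to 0.23, of which 28 were below 0 and 11 above. This split depends on the scale. In a fit on log2(TPM + 1) the median was 0.003 and 11 members changed sign, so no direction is read from it. The 95% interval of the log2 fold change was narrowest for Rfc5 (-0.33 to 0.13) and widest for Mcm5 (-0.56 to 0.40). Both LEF1cKO libraries lay below both WT libraries by TPM in 8 members and above them in 4, where 13.4% of all genes tested lay below and 28.3% above. The members with the smallest p were Prim2 (log2 fold change -0.32 ± 0.14, adjusted p = 0.587), Rfc4 (-0.33 ± 0.16, adjusted p = 0.608), Gins2 (0.23 ± 0.12, adjusted p = 0.648), Tyms (-0.22 ± 0.12, adjusted p = 0.653) and Gins4 (-0.21 ± 0.13, adjusted p = 0.713). Summed markers of differentiated epidermis, fibroblasts and immune cells were also higher in LEF1cKO than in WT, as given above. Their median log2 fold changes were 0.919, 1.513 and 1.224, with 2 of 12, 0 of 10 and 0 of 12 markers past the test. The medians were 0.292 for endothelial and mural markers and -0.613 for melanocyte and Schwann markers, and none of either list passed.

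**Figure D3:**
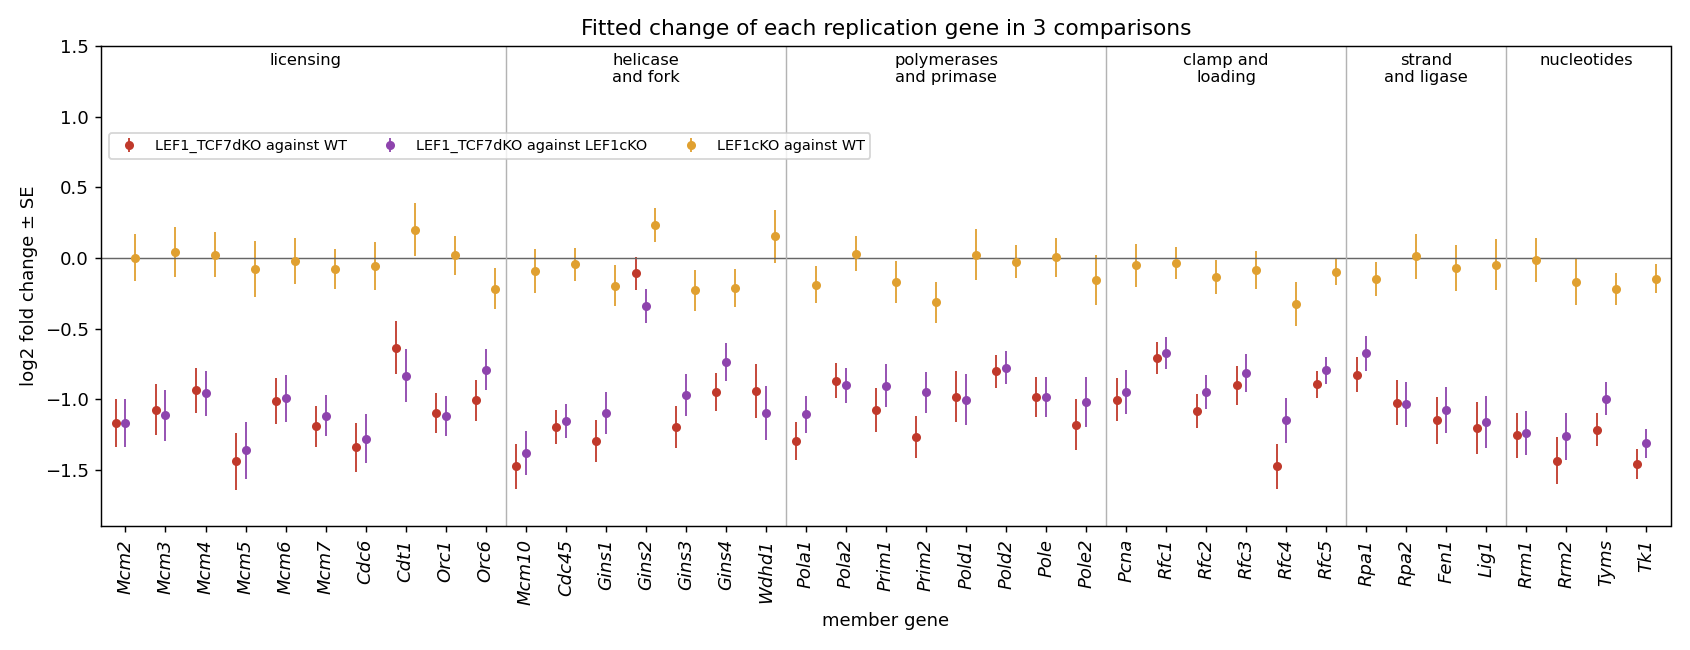
Log2 fold change ± SE of each member (y axis) fitted on counts of 2 libraries per group, genes on the x axis in order of step. The LEF1cKO against WT values (orange) lie between -0.33 and 0.23, and the double knockout against WT (red) and against LEF1cKO (purple) lie below 0 throughout, Gins2 being nearest to it.

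Licensing held 10 members, and all 10 were called lower in the double knockout than in WT, with a median log2 fold change of -1.09 and a range of -1.44 to -0.64. Mcm6 and Mcm7, subunits of the helicase ring, had the highest levels of the step. Mcm6 had 99.5 and 123 TPM in the double knockout, 225 and 198 TPM in LEF1cKO, and 195 and 216 TPM in WT. Mcm7 had 89.6 and 106 TPM in the double knockout, 207 and 189.7 TPM in LEF1cKO, and 193 and 203 TPM in WT. The double-knockout libraries were the lowest of both genes, and the LEF1cKO and WT libraries overlapped. The log2 fold change against WT was -1.01 ± 0.16 for Mcm6 (adjusted p = 0.00732, and 0.0575 without WT replicate 2) and -1.19 ± 0.14 for Mcm7 (adjusted p = 0.00408). Mcm7 shares exon bases with Cops6 and Ap4m1 on the other strand, and the sources used here do not say whether strand was used in counting.

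The largest fall of the step was that of Mcm5, another ring subunit, whose promoter is shown above. It had 63.6 and 84.7 TPM in the double knockout, 199 and 166 TPM in LEF1cKO, and 172 and 195 TPM in WT, with a log2 fold change of -1.44 ± 0.20 against WT (adjusted p = 0.00542). The 6 ring subunits kept close to one another, the highest standing at 1.66 and 1.71 times the lowest by TPM in the double knockout, 1.70 and 1.72 times in LEF1cKO, and 1.81 and 1.74 times in WT. Mcm2, Mcm3 and Mcm4 fell by log2 values of -1.17, -1.07 and -0.94. For Mcm3 and Mcm4 the adjusted p reached 0.0591 and 0.0653 when a library was left out, WT replicate 2 for both and double-knockout replicate 1 for Mcm4.

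The loaders varied more. Cdc6, an ATPase that helps to load the ring, had 7.86 and 10.9 TPM in the double knockout, 22.0 and 22.5 TPM in LEF1cKO, and 20.6 and 23.2 TPM in WT, a log2 fold change of -1.34 ± 0.17 against WT (adjusted p = 0.00468). Cdt1, which carries the ring to the origin, changed least of the step. It had 31.8 and 44.4 TPM in the double knockout, 67.5 and 62.8 TPM in LEF1cKO, and 51.2 and 56.6 TPM in WT. Its log2 fold change against WT was -0.64 ± 0.19 (adjusted p = 0.0408), which no longer passed without either WT library, without LEF1cKO replicate 1 or without double-knockout replicate 1, with adjusted p up to 0.204. It also did not pass in limma's fits on TPM (adjusted p = 0.0637 at the highest).

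Subunits of the origin recognition complex did not all change alike. Orc1 and Orc6 are members, and Orc2 to Orc5 were counted among 51 companion genes of replication, and they are set side by side here after their values were seen. Orc1, an ATPase subunit of the complex, had 5.10 and 5.40 TPM in the double knockout, 11.6 and 10.8 TPM in LEF1cKO, and 9.91 and 10.6 TPM in WT. Orc6 had 25.4 and 26.1 TPM in the double knockout, 46.5 and 38.5 TPM in LEF1cKO, and 45.4 and 48.4 TPM in WT. Both fell against WT, by log2 values of -1.10 ± 0.14 (adjusted p = 0.0046) and -1.01 ± 0.15 (adjusted p = 0.00578), as did Orc2 at -1.01 ± 0.13 (adjusted p = 0.00489). The values were -0.08 ± 0.10 for Orc3 (adjusted p = 0.523), -0.34 ± 0.11 for Orc4 (0.0522) and -0.32 ± 0.11 for Orc5 (0.063), none of which passed. The ratio of Orc1 to Orc4 in TPM was 0.098 and 0.109 in the double knockout, 0.188 and 0.206 in LEF1cKO, and 0.165 and 0.173 in WT. This ratio separates the double knockout from both other groups, and it does not depend on how a library was scaled. Orc1 alone already lay below both groups, and the pair was taken after its values were seen. The ratio is therefore no separate evidence of the fall. Orc6 shares 171 exon bases with Vps35 on the other strand.

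**Figure D4:**
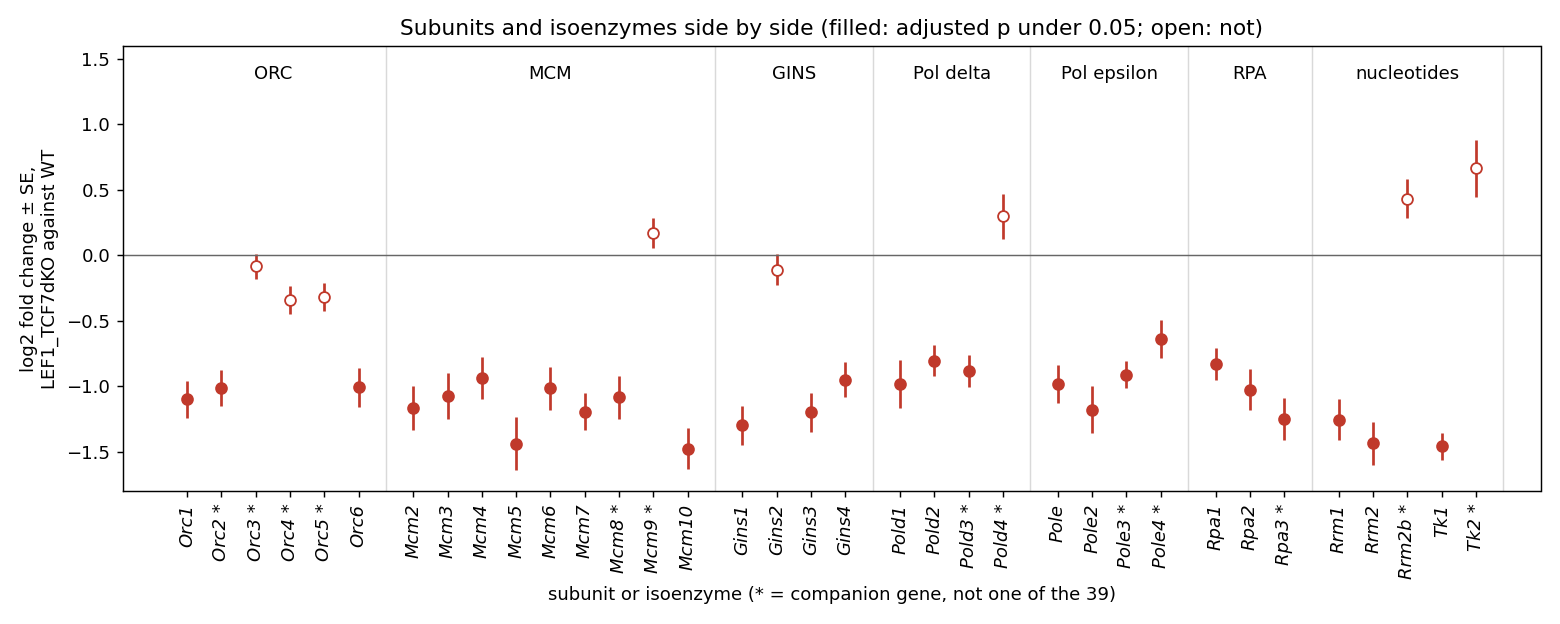
Log2 fold change ± SE in the double knockout against WT (y axis) for subunits and isoenzymes of 7 groups (x axis), 2 libraries per group; an asterisk marks companion genes outside the 39, and open circles did not pass. Orc3, Orc4, Orc5, Mcm9, Gins2, Pold4, Rrm2b and Tk2 are the open circles, and the other subunits shown lie at or below -0.64.

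In helicase activation and the fork, 6 of 7 members fell against WT, with a median log2 fold change of -1.20. Mcm10, a fork protein needed to start unwinding, had 16.0 and 15.9 TPM in the double knockout, 43.4 and 35.5 TPM in LEF1cKO, and 39.3 and 41.5 TPM in WT. Its log2 fold change of -1.48 ± 0.16 (adjusted p = 0.00354) was the largest of the step. Cdc45, a part of the active helicase, had 22.6 and 23.8 TPM in the double knockout, 52.4 and 46.7 TPM in LEF1cKO, and 48.2 and 49.6 TPM in WT, at -1.20 ± 0.12 (adjusted p = 0.00337). Both genes had double-knockout libraries close to each other and far below the rest. Wdhd1, which ties polymerase alpha to the helicase, fell by a log2 value of -0.94 ± 0.19 (adjusted p = 0.0127), with an adjusted p of up to 0.0877 without either WT library or without double-knockout replicate 1.

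Of the 4 GINS genes, whose products form a single complex, only Gins2 gave a result that depended on how it was measured. Gins1, Gins3 and Gins4 fell against WT, by log2 values of -1.30 ± 0.15, -1.20 ± 0.15 and -0.95 ± 0.13 (adjusted p = 0.00386, 0.00426 and 0.00556). Gins2, at -0.11 ± 0.12 on the count scale (95% interval -0.40 to 0.18, adjusted p = 0.504), did not pass, nor did it against LEF1cKO, at -0.34 ± 0.12 (adjusted p = 0.0826). By TPM, Gins2 stood at 46.3 and 72.7 in the double knockout, 101 and 105 in LEF1cKO, and 86.4 and 91.9 in WT, so that the groups did not overlap. Its counts were 3016 and 3829 in the double knockout, 4738 and 5712 in LEF1cKO, and 4311 and 5451 in WT.

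The scales part because the length that the authors' program assigned to Gins2 differed. Its effective length was 2718 and 2034 bases in the double knockout, 1573 and 1666 bases in LEF1cKO, and 1500 and 1513 bases in WT. The longest was 1.81 times the shortest, the largest such ratio of the 39, and the next were 1.16 for Tyms and 1.13 for Gins1. With effective length as an offset in the count fit, a setting chosen after the data were seen, Gins2 changed by -0.72 on the log2 scale relative to WT (adjusted p = 0.0454) and by -0.85 relative to LEF1cKO (adjusted p = 0.0401). Gins2, at 120578633 to 120589304 on the minus strand of chromosome 8 in GENCODE M21, shares 2758 exon bases with Gse1, which lies on the other strand and had 4042 and 3864 counts in the double knockout, 5930 and 6366 in LEF1cKO, and 4279 and 5819 in WT. If strand was not used, reads of the pair cannot be told apart, and the part of this overlap in the value of Gins2 was not tested.

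Among the polymerases and primase, 8 of 8 members fell against WT, with a median log2 fold change of -1.03. Pold1, the catalytic subunit of polymerase delta, had the highest level, with 52.1 and 60.8 TPM in the double knockout, 114 and 92.1 TPM in LEF1cKO, and 91.0 and 103 TPM in WT. It fell by a log2 value of -0.98 ± 0.18 (adjusted p = 0.01, and up to 0.0722 without WT replicate 2 or double-knockout replicate 1). Prim1, the catalytic primase subunit, had 43.7 and 52.2 TPM in the double knockout, 96.0 and 80.4 TPM in LEF1cKO, and 95.5 and 93.2 TPM in WT, at -1.08 ± 0.15 (adjusted p = 0.00556). The largest fall was that of Pola1, the catalytic subunit of polymerase alpha. Pola1 had 18.98 and 19.9 TPM in the double knockout, 42.6 and 36.6 TPM in LEF1cKO, and 42.7 and 44.6 TPM in WT, a log2 fold change of -1.30 ± 0.13 (adjusted p = 0.00342). Its regulatory partner Pola2 fell by a smaller log2 value of -0.87 ± 0.12 (adjusted p = 0.00557), and no test was made between the pair.

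Pold2, the accessory subunit of polymerase delta, changed least of the step, with 47.5 and 51.5 TPM in the double knockout, 83.4 and 80.6 TPM in LEF1cKO, and 72.2 and 83.4 TPM in WT, and a log2 fold change of -0.80 ± 0.12 (adjusted p = 0.00589, and 0.0566 without WT replicate 2). Prim2, the larger primase subunit, had 19.7 and 22.8 TPM in the double knockout, 42.4 and 36.7 TPM in LEF1cKO, and 45.8 and 47.9 TPM in WT. Both LEF1cKO libraries of Prim2 thus lay between the other groups, although only the fall in the double knockout passed, at -1.27 ± 0.15 relative to WT (adjusted p = 0.00395) and -0.95 ± 0.15 relative to LEF1cKO (adjusted p = 0.0129). For polymerase epsilon, Pole and Pole2 fell by log2 values of -0.98 and -1.18. Pold4, the smallest polymerase delta subunit and a companion gene, had 20.8 and 21.2 TPM in the double knockout, 15.6 and 17.6 TPM in LEF1cKO, and 16.9 and 14.1 TPM in WT, at 0.30 ± 0.17 against WT (adjusted p = 0.218, not passed).

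In the clamp and its loader, 6 of 6 members fell against WT, with a median log2 fold change of -0.95. Pcna, the sliding clamp, had 237 and 291 TPM in the double knockout, 485 and 445 TPM in LEF1cKO, and 456 and 471 TPM in WT. It fell by a log2 value of -1.003 ± 0.15 (adjusted p = 0.00663, and 0.0514 without WT replicate 2). Pcna-ps2, a processed pseudogene on chromosome 19 whose sequence is 99.2% identical to the Pcna transcript, was listed at 0 and 0.13 TPM in the double knockout, 0 and 0 TPM in LEF1cKO, and 92.9 and 90.7 TPM in WT. Reads from so close a copy are split by a model, the labels do not say how they were placed, and whether the groups carry the same sequence at this locus was not tested. Summed with Pcna-ps2, the log2 fold change of Pcna was -1.24 between double knockout and WT (adjusted p = 0.0045), -0.95 between double knockout and LEF1cKO (adjusted p = 0.0143) and -0.29 between LEF1cKO and WT (adjusted p = 0.663), so no call changed. Of the 8 other pseudogene copies of members found by sequence, the highest, Gm17052 of Wdhd1, reached 6.8 TPM in LEF1cKO replicate 2.

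**Figure D5:**
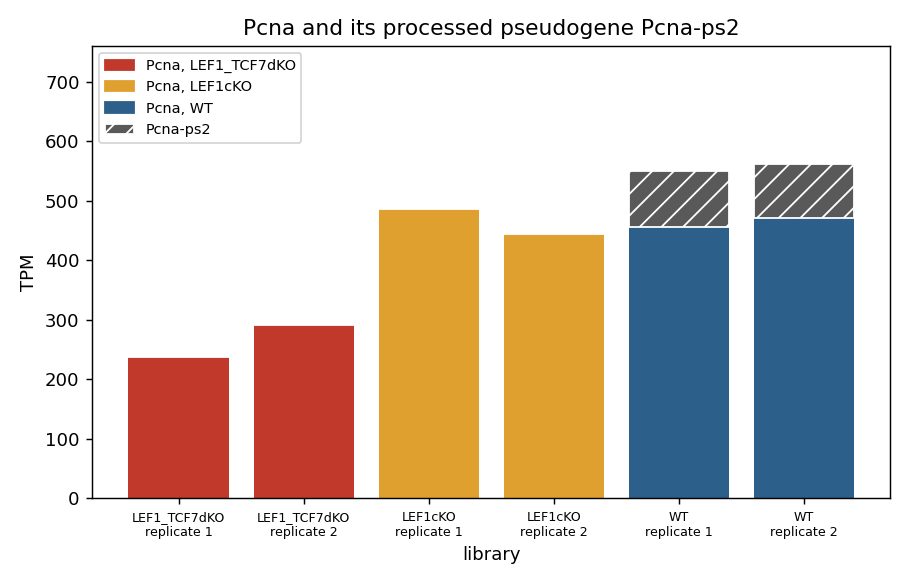
TPM of Pcna (solid bars) with that of its processed pseudogene Pcna-ps2 stacked on it (hatched), for each of the 6 libraries. Pcna-ps2 adds 92.9 and 90.7 TPM in the WT libraries and at most 0.13 TPM in any other, while Pcna itself is lowest in the double knockout.

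The loader, which opens the clamp and closes it around DNA, was uneven among its 5 subunits. Rfc2 had the highest level, with 94.9 and 108 TPM in the double knockout, 191 and 180.2 TPM in LEF1cKO, and 183 and 201 TPM in WT, and a log2 fold change of -1.08 ± 0.12 (adjusted p = 0.0036). Rfc4 changed most, with 30.3 and 36.1 TPM in the double knockout, 74.4 and 67.9 TPM in LEF1cKO, and 91.4 and 83.7 TPM in WT, at -1.48 ± 0.16 (adjusted p = 0.00356). Rfc1, the large subunit, changed least. It had 33.1 and 35.0 TPM in the double knockout, 55.2 and 51.0 TPM in LEF1cKO, and 47.8 and 52.6 TPM in WT, a log2 fold change of -0.71 ± 0.12 (adjusted p = 0.00733, and up to 0.0708 without WT replicate 2 or double-knockout replicate 1). The 95% intervals of Rfc4 (-1.86 to -1.09) and Rfc1 (-0.99 to -0.43) do not overlap, and no test was made between the genes. Rfc4 shares 194 exon bases with Eif4a2 on the other strand, whose counts were 776% of its own. Rfc3 and Rfc5 fell by log2 values of -0.90 and -0.90, and Rfc3 had an adjusted p of 0.055 without WT replicate 2.

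In strand binding and lagging-strand joining, 4 of 4 members fell against WT, with a median log2 fold change of -1.09. Lig1, which seals the fragments of the lagging strand, had 63.0 and 72.7 TPM in the double knockout, 161 and 125 TPM in LEF1cKO, and 135 and 148 TPM in WT, at -1.21 ± 0.18 (adjusted p = 0.00647). Rpa1, the large subunit of the single-strand binding protein, changed least, with 61.1 and 67.3 TPM in the double knockout, 101 and 96.5 TPM in LEF1cKO, and 99.4 and 112 TPM in WT, at -0.83 ± 0.12 (adjusted p = 0.00609, and 0.0578 without WT replicate 2). Rpa2, the middle subunit, and Fen1, the nuclease that trims flaps, fell by log2 values of -1.03 and -1.15. Rpa2 had an adjusted p of 0.0508 without WT replicate 2.

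Nucleotide supply had the lowest median of the 6 steps, at a log2 fold change of -1.35, and 4 of 4 members fell against WT. Tk1, the thymidine kinase of the cytosol that dividing cells use, had the smallest p of the 39. It had 92.5 and 96.5 TPM in the double knockout, 229.7 and 223 TPM in LEF1cKO, and 239 and 243 TPM in WT, with a log2 fold change of -1.46 ± 0.10 (95% interval -1.72 to -1.20, adjusted p = 0.00175). Each pair of Tk1 libraries lay close together, and the double knockout was far below. Rrm1, the large subunit of ribonucleotide reductase, had 81.9 and 86.4 TPM in the double knockout, 209 and 169.7 TPM in LEF1cKO, and 188 and 178 TPM in WT, at -1.26 ± 0.16 (adjusted p = 0.00442). Its S-phase partner Rrm2 had 69.6 and 83.2 TPM in the double knockout, 190.4 and 159.7 TPM in LEF1cKO, and 182 and 195 TPM in WT, at -1.44 ± 0.17 (adjusted p = 0.00397). Tyms, thymidylate synthase, changed least of the step, with 74.4 and 89.5 TPM in the double knockout, 177 and 171 TPM in LEF1cKO, and 193 and 198 TPM in WT, at -1.22 ± 0.12 (adjusted p = 0.00329).

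Their counterparts used outside S phase are companion genes. Rrm2b, the reductase subunit induced by p53, had 9.68 and 6.66 TPM in the double knockout, 6.38 and 8.21 TPM in LEF1cKO, and 5.70 and 5.46 TPM in WT, at a log2 fold change of 0.43 ± 0.15 against WT (adjusted p = 0.0666, not passed). Tk2, the mitochondrial thymidine kinase, had 8.97 and 8.94 TPM in the double knockout, 4.37 and 6.22 TPM in LEF1cKO, and 5.73 and 4.54 TPM in WT, at 0.66 ± 0.21 (adjusted p = 0.0539, not passed). The ratio of Rrm2 to Rrm2b in TPM was 7.19 and 12.5 in the double knockout, 29.8 and 19.5 in LEF1cKO, and 32.0 and 35.7 in WT. The ratio of Tk1 to Tk2 was 10.3 and 10.8 in the double knockout, 52.6 and 35.9 in LEF1cKO, and 41.8 and 53.5 in WT. Both ratios put the double knockout below the other groups without overlap. Rrm2 and Tk1 alone already lay below both groups, so the ratios are no separate evidence of the fall.

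Beyond the 39 members, 42 of 51 companion genes fell in the double knockout against WT and 0 rose, with a median log2 fold change of -1.01. Of all genes tested 19.6% fell and 18% rose. With DESeq2, with only the 2 groups compared and on log2(TPM + 0.1), 1 companion gene rose. Against LEF1cKO 42 fell, where 14.1% of all genes tested fell. None of these calls held without double-knockout replicate 1, a fit in which calls were lost over all genes. Against WT, 10 of 10 genes of chromatin at the fork fell, among them the maintenance methyltransferase Dnmt1, and so did 10 of 10 further genes of helicase activation and the fork. Pclaf, a protein that binds PCNA, had 70.6 and 76.9 TPM in the double knockout, 249 and 200.3 TPM in LEF1cKO, and 213 and 213 TPM in WT, at -1.60 ± 0.16 (adjusted p = 0.00337). Tipin, a fork protection protein, changed by -1.15 ± 0.11 (adjusted p = 0.00316). The 9 that did not pass, named after their values were seen, were Orc3, Orc4, Orc5, Mcm9, Pold4, Rrm2b, Dctd, Tk2 and Samhd1. In LEF1cKO against WT 0 of 51 passed, where 0.601% of all genes tested did. Of the 51, 2 had an unadjusted p under 0.05, as did 9.58% of all genes tested. The smallest p were those of Mcm9 (0.32 ± 0.12, adjusted p = 0.436) and Samhd1 (0.15 ± 0.10, adjusted p = 0.72) among positive changes. Among negative ones they were those of Rnaseh2a (-0.33 ± 0.13, adjusted p = 0.468) and Rpa3 (-0.31 ± 0.16, adjusted p = 0.636).

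Set beside the promoter windows, the fall differed little in its median between genes with and without an octamer. The 12 members with an E2F-type octamer had a median log2 fold change of -1.14 in the double knockout against WT, ranging from -1.44 to -0.64. The 20 with a window and no octamer had a median of -1.11, ranging from -1.48 to -0.71. These are descriptions of the genes with a window and carry no test.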

How the data were processed

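RNA of 6 libraries was read in pairs after mRNA selection. Each gene has an expected count, the RSEM estimate deposited without normalization; the tools named in the submitters' processing notes are Bowtie2 2.2.9 and RSEM 1.2.30, with build mm10. The deposited TPM values come from the same program, per the file headers. The annotation release was not stated, and GENCODE M21 supplied positions, overlaps and pseudogenes, which were matched to members with blastn 2.17.0 at 90% identity.

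Expected counts were rounded and fitted with edgeR 4.0.16 in R 4.3.3, using TMM factors, filterByExpr, all 6 libraries and quasi-likelihood F tests whose p were adjusted by Benjamini-Hochberg over 19640 genes. Another 92 spike-in identifiers held 0 counts and were left out. The fit has 3 residual degrees of freedom. Alternatives used limma 3.58.1 and DESeq2 1.42.0. The members and lists were chosen with earlier results of these data known. Named in full are, per step, the 2 members with the highest mean TPM and those with the largest and smallest change in the double knockout against WT, then the 5 with the smallest p in LEF1cKO, and the companion genes with the 2 smallest p per direction. A companion gene that this rule names is not reported here. Intervals cover the fitted spread and not the animals.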

Additional observations from a re-analysis of the deposited data

How the results depend on the processing

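Of 117 member results (39 genes in 3 comparisons), no called direction reversed under any alternative run. Under the settings that left out no single library, 37 to 39 members passed for the double knockout against either group and 0 for LEF1cKO against WT; the gains and losses concerned Gins2 and Cdt1. On log2(TPM + 1), Gins2 passed against LEF1cKO (adjusted p = 0.0409). Uncalled values of LEF1cKO against WT changed sign in up to 11 members, so no direction is read from them. With libraries left out in turn, 26 to 38 members passed for the double knockout against WT and 0 to 38 against LEF1cKO, 29 to 45 and 0 to 41 companion genes, and 0 of either list for LEF1cKO against WT. Over all genes those counts were 1968 to 8333 (7389 with all libraries), 1 to 5973 (4952) and, for LEF1cKO against WT, 78 to 138 (118). For LEF1cKO against WT, 422 genes passed with no filter and 612 with DESeq2, and for the double knockout against LEF1cKO 2585 passed with only the 2 groups compared; the cause was not tested. On log2(TPM + 0.1) the median of all genes moved to 0.131 in the double knockout against WT. Each library held at least 40480694 expected counts, and 2 libraries a group limit which small changes could be called.

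The replicate numbers mark no shared animal, batch or day in the labels. Deviations of same-numbered libraries correlated at -0.04, 0.06 and -0.03 over 19640 genes, so no pairing by number was seen over all genes together. A shared batch or day that acts on a part of the genes was not tested. With a replicate block, 37 members passed for the double knockout against WT (Cdt1 had an adjusted p of 0.051), 38 against LEF1cKO and 0 for LEF1cKO against WT, and 6435, 3635 and 80 of all genes passed.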
